A study of Rattus norvegicus with 8 samples.

Results

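The genes described here are the 8 that carry the liver's synthesis of bile acids and their conjugation to amino acids: Cyp7a1, Cyp27a1, Cyp7b1, Hsd3b7, Cyp8b1, Akr1d1, Slc27a5 and Baat. They were chosen by gene symbol in the annotation of the array, and all 8 were found among 14511 measured genes. Each had 1 probe set, the group of array probes whose signal is summarised as 1 value. RNA was taken from isolated livers of male Wistar rats aged 6 to 10 weeks, perfused with a salt solution buffered by bicarbonate (Krebs-Henseleit). For 4 samples the buffer was hypoosmotic (225 mosm/L), which makes liver cells take up water and swell, and for 4 it was normoosmotic (305 mosm/L). Samples of both groups were taken at 180 min, and the labels name no other treatment. An isolated liver receives no bile acids or hormones from the gut and other organs unless they are added to the buffer.

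Hepatocytes turn cholesterol into bile acids, which are secreted into bile and help to digest fat. In the classic pathway Cyp7a1 places a hydroxyl group on the sterol ring as the rate-limiting step. In the alternative pathway Cyp27a1 oxidises the side chain first, and Cyp7b1 then hydroxylates the ring of the oxysterol. Hsd3b7 and Akr1d1 remodel the ring, Cyp8b1 directs the products towards cholic acid, and Slc27a5 and Baat join bile acids to coenzyme A and then to taurine or glycine. Bile acids repress Cyp7a1 through the nuclear receptor FXR (Nr1h4), its target SHP (Nr0b2) and the growth factor receptor Fgfr4, while Nr5a2 (LRH-1) and Hnf4a activate genes of the pathway.

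The promoters of 3 members are shown because they hold letters that match binding motifs of NR5A2 or HNF4, whose transcripts are described further on. In mice, loss of liver Hnf4a is known to lower Baat, and rat Cyp8b1 is known to respond to NR5A2 and HNF4A. Each sequence runs 5′ to 3′ on the gene's own strand, from 250 bases before to 50 bases after the annotated start, as given by RefSeq on the GRCr8 build. Cyp8b1 lies at chr8:130457543-130457842 (minus strand), Cyp27a1 at chr9:83713282-83713581 (plus strand) and Baat at chr5:68656088-68656387 (minus strand). Capitals mark matches on either strand to CAAGGNC, the core of NR5A sites, in Cyp8b1 and Cyp27a1, and to CAAAGTCCA, a form of the HNF4 site, in Baat.
Cyp8b1: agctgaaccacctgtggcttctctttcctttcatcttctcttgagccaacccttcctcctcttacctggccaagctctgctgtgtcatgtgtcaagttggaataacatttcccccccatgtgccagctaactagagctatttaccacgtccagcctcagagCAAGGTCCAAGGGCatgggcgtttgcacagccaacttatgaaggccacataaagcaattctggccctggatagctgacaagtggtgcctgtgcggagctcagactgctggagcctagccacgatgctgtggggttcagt
Cyp27a1: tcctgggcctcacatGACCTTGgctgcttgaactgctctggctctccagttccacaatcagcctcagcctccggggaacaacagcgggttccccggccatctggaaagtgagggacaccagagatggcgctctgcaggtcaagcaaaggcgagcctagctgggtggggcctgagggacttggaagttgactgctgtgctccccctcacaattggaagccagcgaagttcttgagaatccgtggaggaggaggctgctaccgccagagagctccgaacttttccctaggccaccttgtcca
Baat: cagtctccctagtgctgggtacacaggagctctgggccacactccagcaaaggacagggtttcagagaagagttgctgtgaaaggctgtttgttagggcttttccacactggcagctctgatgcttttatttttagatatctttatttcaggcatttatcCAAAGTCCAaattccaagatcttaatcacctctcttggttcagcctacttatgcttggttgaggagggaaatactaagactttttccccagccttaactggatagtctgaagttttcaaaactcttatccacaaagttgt

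In Cyp8b1 the match to CAAGGNC occurred at 89 and again at 82 bases before the start, so that both lie end to end. In Cyp27a1 it lay 235 bases before the start on the opposite strand, where it overlaps a match to the nuclear receptor half-site AGGTCA, and another AGGTCA lay 115 bases before the start. In Baat the HNF4 letters lay 90 bases before the start. Among 33365 RefSeq promoters of the same length, 18.6% held CAAGGNC, 16.2% held AGGTCA and 0.393% held CAAAGTCCA on either strand. The promoters of Hsd3b7 and Slc27a5 held none of these 3 motifs, and TGTTTAC, a FOX factor motif present in 3.78% of promoters, was in none of the 5 member promoters in the table. The motifs were picked after the sequences had been read, and a match is a description of letters, not evidence of binding.

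The values are log2 intensities, so a difference of 1 is a 2-fold difference, and levels of different probe sets cannot be set against each other. Array medians lay between 3.92 and 4.05, and the number of arrays limits the precision. Nothing in the labels states that each array stands for its own rat, so the p-values describe how these samples vary, and part of that variation may be technical. Hypoosmotic replicate 3 stood apart on the second principal component (28.5, against -15.3 to 6.60 on the other 7 arrays), and results that rest on it are given without it as well. Over all genes, 1026 of 14511 differed between hypoosmotic and normoosmotic samples (limma, Benjamini-Hochberg adjusted p under 0.05), or 7.07%. Of these, 356 were higher and 670 lower, or 235 and 733 with each array centred on its median. A level near background was taken as 3.04, the 95th percentile of 1052 odorant receptor genes. All 10 hepatocyte markers, among them Alb and Ttr, had means above that level, and all 6 neutrophil markers had means below it.

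Of the 8 members, 1 fell, 0 rose and 7 did not pass the test. The one that fell was Cyp7b1. Its share has to be read against the 4.62% of all genes that fell. The median change of the 8 was -0.07 on the log2 scale, against 0.015 over all genes, with 4 members above and 4 below 0. At an unadjusted p under 0.05 the count was also 1.

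**Figure D1:**
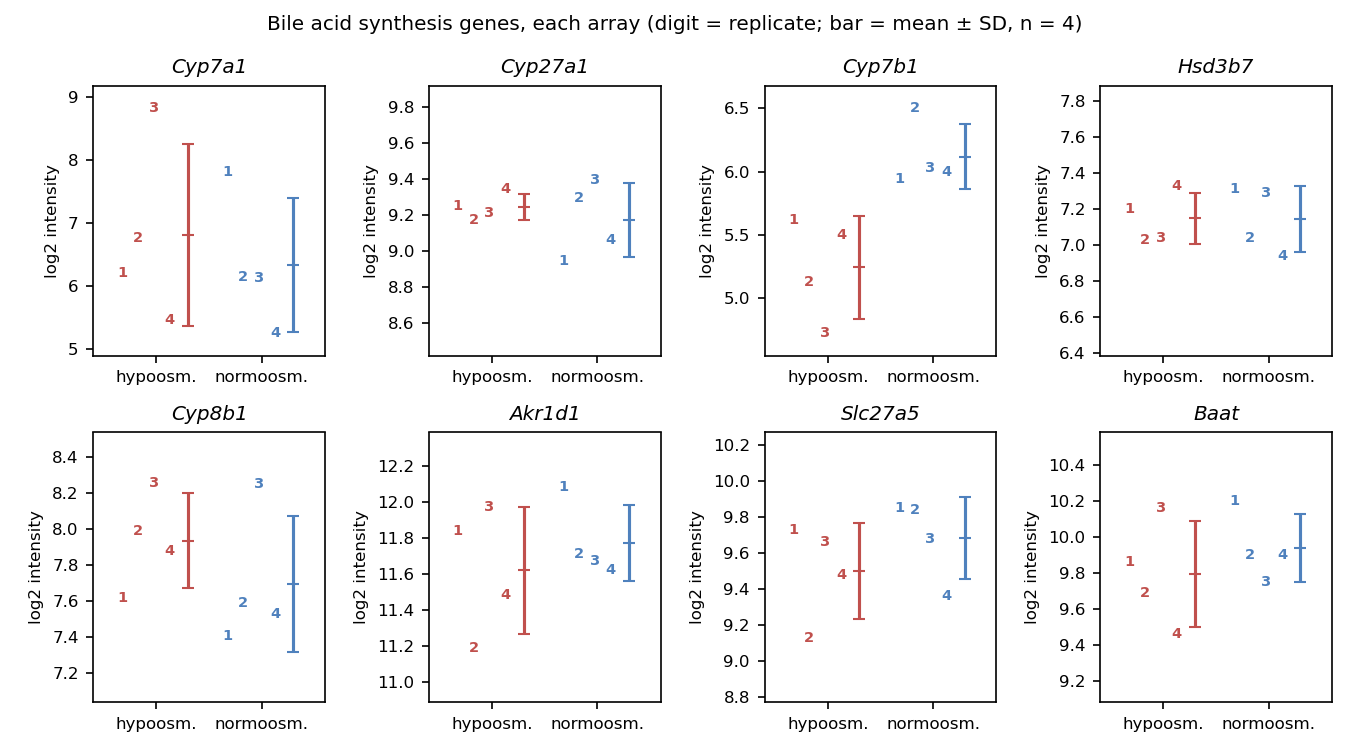
Log2 intensity (vertical axes, at least 1.5 units each) of the 8 members on each array, hypoosmotic on the left and normoosmotic on the right of each panel; digits are replicate numbers and bars the mean ± SD (n = 4). Only in the Cyp7b1 panel do the groups not overlap, and the Cyp7a1 values spread over more than 3 units.

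Cyp7a1, the entry to the classic pathway, differed more between samples of the same group than between the groups. Its log2 intensities were 6.20, 6.76, 8.82 and 5.45 in hypoosmotic replicates 1 to 4, against 7.81, 6.14, 6.13 and 5.24 in normoosmotic replicates 1 to 4. Hypoosmotic replicate 3 and normoosmotic replicate 1 were high, replicate 4 was the lowest of each group, and the groups overlapped almost entirely. From lowest to highest sample this was a 10.3-fold span under hypoosmotic and a 5.94-fold span under normoosmotic perfusion. The group means were 6.81 ± 1.45 in hypoosmotic and 6.33 ± 1.07 in normoosmotic samples (SD, n = 4 each), a change of 0.48 ± 0.67 (SE) with an adjusted p of 0.776 (limma). The 95% interval of the fold ran from 0.503 to 3.85, so the data allow a fall to about 0.503 times and a rise to 3.85 times the normoosmotic level. Without hypoosmotic replicate 3 the sign turned, to -0.19. Only 8 of the 14511 genes had a larger pooled within-group SD than Cyp7a1, at 1.27, whereas the median over all genes was 0.183.

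**Figure D2:**
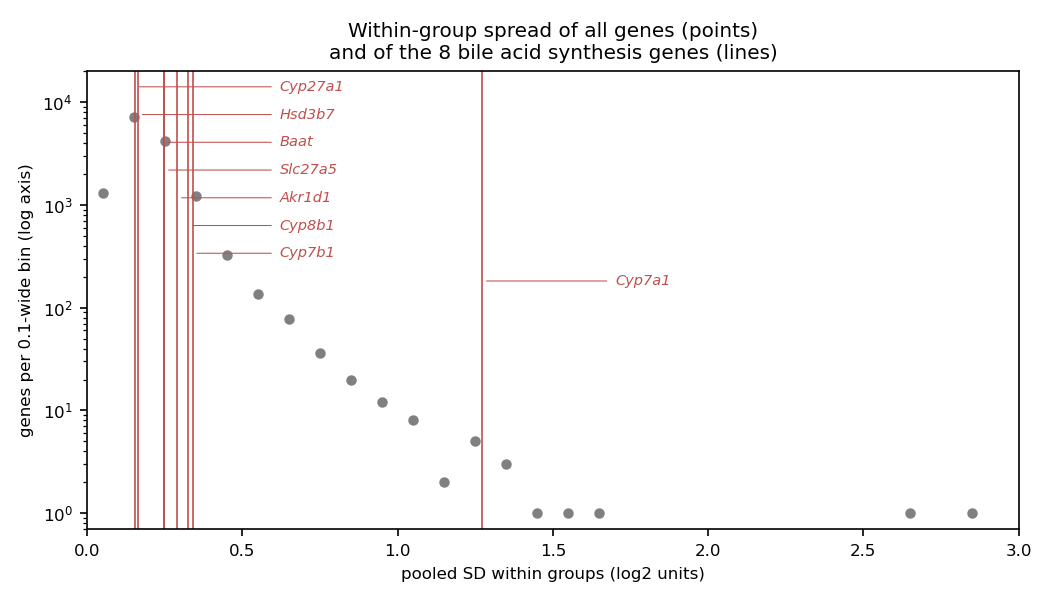
Number of genes per bin of pooled within-group SD (grey points, logarithmic vertical axis; horizontal axis in log2 units), with a red line at each of the 8 members. Cyp7a1 lies at 1.27, far to the right of the other 7 members, which lie between 0.155 and 0.340.

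Dbp, a clock-controlled transcription factor known to activate Cyp7a1 in rat liver, also varied widely. It was named after its values were seen. Its values were 5.92, 6.42, 8.32 and 7.97 in hypoosmotic replicates 1 to 4, against 9.11, 6.38, 8.89 and 5.26 in normoosmotic replicates 1 to 4. Both genes were highest in hypoosmotic replicate 3 and normoosmotic replicate 1 within their groups and lowest in normoosmotic replicate 4. They parted in normoosmotic replicate 3, which was high for Dbp and not for Cyp7a1, and in hypoosmotic replicate 4. The time of day of each perfusion is not among the labels used here, and its part in the spread was not tested.

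Of the 2 oxidases of the alternative pathway, Cyp7b1 fell and Cyp27a1 did not pass. Cyp27a1, the mitochondrial sterol 27-hydroxylase, was at 9.25, 9.17, 9.21 and 9.34 in hypoosmotic samples, against 8.94, 9.29, 9.39 and 9.06 in normoosmotic samples. The hypoosmotic values fell inside the normoosmotic range. The change was 0.07 ± 0.12 (SE; adjusted p = 0.814), and the 95% interval of the fold, 0.879 to 1.26, bounds a change in either direction.

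Cyp7b1, the oxysterol 7α-hydroxylase, had values of 5.62, 5.13, 4.72 and 5.50 in hypoosmotic replicates 1 to 4, against 5.94, 6.50, 6.03 and 6.00 in normoosmotic replicates 1 to 4. Every hypoosmotic sample lay below every normoosmotic one, with a gap of 0.32 between the nearest samples, and hypoosmotic replicate 3 was the lowest of all. Cyp7b1 was the 1 member so separated below, against 8.21% of all genes, and 0 members were separated above, against 5.33% of all genes (13.5% in either direction). The means were 5.24 ± 0.41 in hypoosmotic and 6.12 ± 0.26 in normoosmotic samples (SD, n = 4 each). The log2 change was -0.88 ± 0.20 (SE), which is 1.83-fold lower, with an adjusted p of 0.0242 (limma) and a 95% interval from -1.31 to -0.44. The call depended on which array was left out. Leaving out hypoosmotic replicate 2 gave an adjusted p of 0.0671. Leaving out a normoosmotic array gave 0.0625 (replicate 2), 0.0573 (replicate 3) or 0.0519 (replicate 4), and the other 4 fits of this kind passed. The log2 change stayed between -1.0 and -0.70 in all 8, and was -0.70 without hypoosmotic replicate 3 (adjusted p = 0.0352). Against a minimum fold change of 1.2 the adjusted p was 0.202.

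In a bulk liver sample, fewer cells of a type and less RNA per cell cannot be told apart. Of the 10 hepatocyte markers 0 passed (limma, also 0 at an unadjusted p under 0.05), and the log2 of their summed intensity was 15.6 to 15.7 in hypoosmotic and 15.7 in normoosmotic samples. Of 10 Kupffer cell markers 0 passed (limma, and 0 at an unadjusted p under 0.05), with summed levels of 9.50 to 10.3 in hypoosmotic and 9.46 to 9.93 in normoosmotic samples. Of 7 cholangiocyte markers 0 passed (limma, 1 at an unadjusted p under 0.05), with summed levels of 7.40 to 7.77 in hypoosmotic and 7.50 to 7.64 in normoosmotic samples. The sinusoidal endothelial markers moved more: of 5 measured, 1 rose (Kdr, 0.66) and 1 fell (Oit3, -0.46), against 2.45% and 4.62% of all genes, and 4 had an unadjusted p under 0.05. Their median change was 0.35 and their summed levels were 9.78 to 10.4 in hypoosmotic and 9.68 to 9.90 in normoosmotic samples. With 1 array left out, Kdr passed in 2 of 8 fits and Oit3 in 1 (limma, adjusted p up to 0.0654 and 0.0782). Stab1, Stab2 and Clec4g were not analysed here. Of 8 stellate cell markers 1 rose (Colec11, 0.48) and 3 had an unadjusted p under 0.05, with a median change of 0.26 and summed levels of 8.88 to 9.79 in hypoosmotic and 9.14 to 9.25 in normoosmotic samples. Colec11 passed in 2 of the 8 fits with 1 array left out (limma, adjusted p up to 0.107). The lowest hypoosmotic sum of the stellate markers was that of replicate 4. There Dcn was at 5.82, against 7.96 to 8.01 in the other hypoosmotic samples. The Dcn change was 0.32 with all arrays and 0.86 without that one, and it passed in 1 of the 8 fits. Of 8 periportal hepatocyte markers 1 rose (Arg1, 0.76), 2 had an unadjusted p under 0.05 and 7 had positive changes. Their median change was 0.39 and their summed levels were 12.4 to 12.9 in hypoosmotic and 12.3 to 12.6 in normoosmotic samples. The highest hypoosmotic sum was that of replicate 3, where Pck1 was at 10.66 and G6pc1 at 9.59. Pck1 and G6pc1 had positive changes only through hypoosmotic replicate 3, and without it their changes were -0.57 and -0.19. The median change and the count of positive changes of the periportal list are also lower without that sample. Arg1 passed in all 8 fits with 1 array left out. Of 7 pericentral markers 0 passed (limma, 1 at an unadjusted p under 0.05), with a median change of -0.03 and summed levels of 12.8 to 13.0 in both groups. The part of these cell types in the Cyp7b1 result was not tested.

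Hsd3b7, Cyp8b1 and Akr1d1, which also act on the ring, did not pass. Hsd3b7, which oxidises the 3β-hydroxyl group, was at 7.20, 7.03, 7.04 and 7.33 in hypoosmotic samples, against 7.31, 7.04, 7.29 and 6.94 in normoosmotic samples. The groups overlapped, and the change of 0.01 ± 0.12 (SE) had a 95% interval of the fold from 0.834 to 1.21. Its sign turned in 4 of the 8 fits without 1 array and with median centring.

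Cyp8b1, the sterol 12α-hydroxylase whose promoter is printed above, had 7.62, 7.99, 8.26 and 7.88 in hypoosmotic samples, against 7.41, 7.59, 8.25 and 7.53 in normoosmotic samples. All normoosmotic values but that of replicate 3 lay below the lowest hypoosmotic one, and normoosmotic replicate 3 was nearly as high as the highest. The change was 0.24 ± 0.19 (SE; adjusted p = 0.558), and with 1 array left out it ran from 0.14 (without hypoosmotic replicate 3) to 0.43 (without normoosmotic replicate 3). Dropping normoosmotic replicate 1 gave 0.15. Akr1d1, the steroid 5β-reductase, was at 11.84, 11.19, 11.97 and 11.48 in hypoosmotic samples, against 12.08, 11.71, 11.67 and 11.62 in normoosmotic samples. Hypoosmotic replicates 2 and 4 were low while the other hypoosmotic samples lay among the normoosmotic ones, and the change was -0.15 ± 0.17 (SE; adjusted p = 0.719). With 1 array left out it ran from -0.27 (without hypoosmotic replicate 3) to -0.01 (without hypoosmotic replicate 2), and was -0.05 without normoosmotic replicate 1.

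The conjugating enzymes did not pass either. Slc27a5, the bile acid coenzyme A ligase, had 9.73, 9.13, 9.66 and 9.48 in hypoosmotic samples, against 9.85, 9.84, 9.68 and 9.36 in normoosmotic samples. The lowest value was again that of hypoosmotic replicate 2, and the change was -0.18 ± 0.16 (SE; adjusted p = 0.598). With 1 array left out it ran from -0.29 (without normoosmotic replicate 4) to -0.06 (without hypoosmotic replicate 2). Baat, the amino acid N-acyltransferase that completes conjugation, had 9.86, 9.69, 10.16 and 9.46 in hypoosmotic samples, against 10.20, 9.90, 9.75 and 9.90 in normoosmotic samples. Its highest samples in each group, hypoosmotic replicate 3 and normoosmotic replicate 1, were also the highest for Cyp7a1 and Akr1d1. The change was -0.15 ± 0.15 (SE; adjusted p = 0.689), with a 95% interval of the fold from 0.714 to 1.15. With 1 array left out it ran from -0.27 (hypoosmotic replicate 3 dropped) to -0.03 (hypoosmotic replicate 4 dropped), and dropping normoosmotic replicate 1 gave -0.06.

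**Figure D3:**
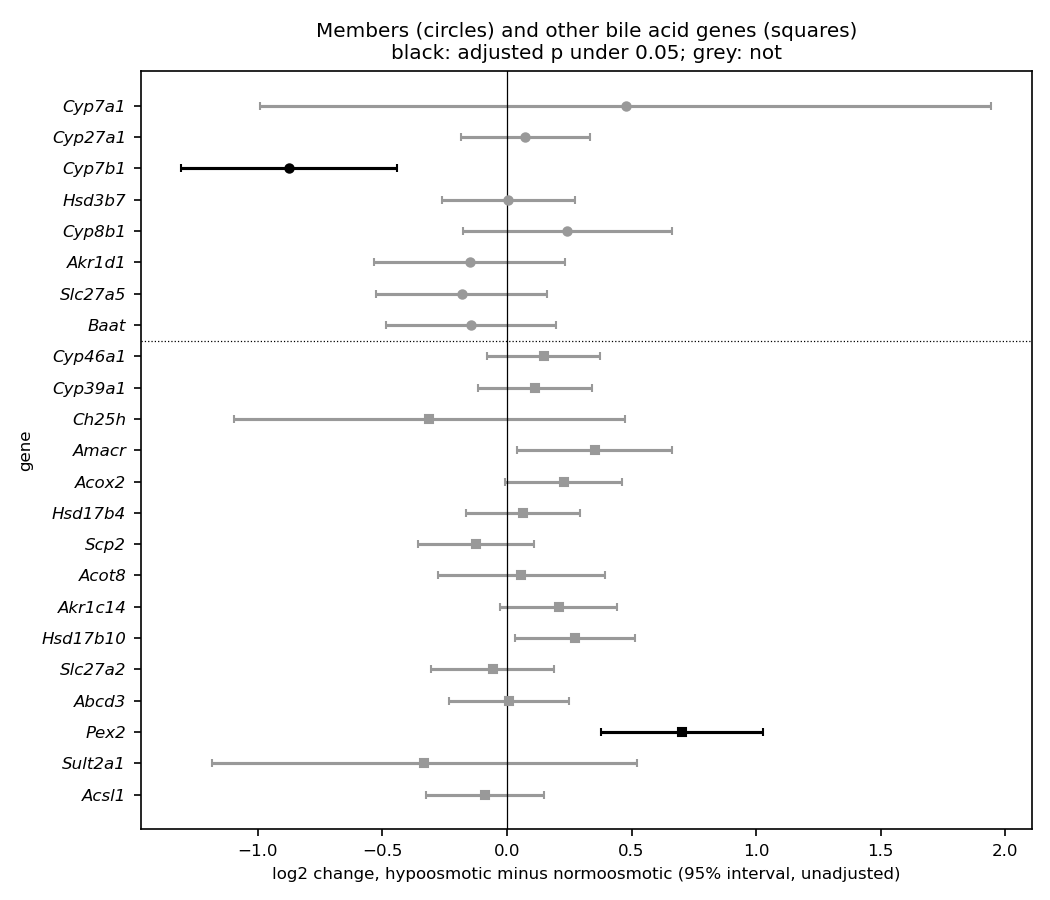
Log2 change, hypoosmotic minus normoosmotic (horizontal axis), with its unadjusted 95% interval for the 8 members (circles, top) and 15 other bile acid genes (squares, bottom); black marks an adjusted p under 0.05. Cyp7b1 at -0.88 and Pex2 at 0.70 are black, and the Cyp7a1 interval is the widest shown.

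The other enzymes and carriers of bile acid synthesis include those of the side chain. Of 15 measured, 1 rose, 0 fell and 14 did not pass, with a median change of 0.06 (3 at an unadjusted p under 0.05). The gene that rose was Pex2, needed to build peroxisomes, where the sterol side chain is shortened. It had 5.87, 5.94, 5.48 and 5.61 in hypoosmotic samples, against 4.87, 5.38, 4.99 and 4.85 in normoosmotic samples, a change of 0.70 ± 0.15 (SE; adjusted p = 0.0184) with no overlap. A rise was called for 2.45% of all genes. With 1 array left out, Pex2 passed only without hypoosmotic replicate 3, hypoosmotic replicate 4 or normoosmotic replicate 2, and its adjusted p ranged from 0.0150 to 0.0574. Amacr, the racemase that prepares the side chain for shortening, had a change of 0.35 (adjusted p = 0.177), and Acox2, the oxidase that starts the shortening, 0.23 (adjusted p = 0.259). Cyp39a1, which acts on another oxysterol, had a change of 0.11 (adjusted p = 0.632). Ch25h, which forms an oxysterol from cholesterol, had a change of -0.31 (adjusted p = 0.714). The Ch25h change rested on hypoosmotic replicate 3, at 5.79, and was 0.10 without it. These 4 genes fall outside the rule for naming genes and were named after their values were seen.

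Of 21 measured regulators 4 rose, 1 fell and 16 did not pass, against 2.45% and 4.62% of all genes, and the list median was 0.27 (10 at an unadjusted p under 0.05). The list was chosen with earlier results of these data known, so these shares are a description and not an independent comparison. Nr5a2, the activating nuclear receptor LRH-1, had 8.54, 8.48, 8.53 and 8.45 in hypoosmotic samples, against 8.0, 8.01, 7.63 and 7.95 in normoosmotic samples. The hypoosmotic values lay within 0.1 of each other and above all normoosmotic ones, a 1.52-fold rise (log2 change 0.60 ± 0.11 SE, adjusted p = 0.0108). Foxa2, a forkhead factor of hepatocytes involved in bile acid balance in mice, had 6.02, 5.97, 6.29 and 6.18 in hypoosmotic samples, against 5.05, 5.14, 4.48 and 5.29 in normoosmotic samples. It rose 2.18-fold, with no overlap and an adjusted p of 0.00500. Nr1i2, the xenobiotic and bile acid receptor PXR, rose 1.72-fold (7.55 ± 0.31 in hypoosmotic and 6.76 ± 0.31 in normoosmotic samples, SD, n = 4 each; adjusted p = 0.0278). The coactivator gene Ppargc1a rose 2.24-fold (adjusted p = 0.0132).

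Fgfr4, the hepatocyte receptor through which a gut hormone represses Cyp7a1, was the regulator that fell. Its values were 5.80, 5.69, 5.81 and 5.56 in hypoosmotic samples, against 6.24, 6.20, 6.20 and 6.26 in normoosmotic samples. All hypoosmotic samples lay below all normoosmotic ones, with a log2 change of -0.51 ± 0.10 (SE; adjusted p = 0.0122). With any 1 array left out, Nr5a2, Foxa2, Ppargc1a and Fgfr4 still passed. Nr1i2 passed only without hypoosmotic replicate 1 or normoosmotic replicate 3, with an adjusted p from 0.0219 to 0.0701. Klb, the partner of Fgfr4, was not analysed here.

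**Figure D4:**
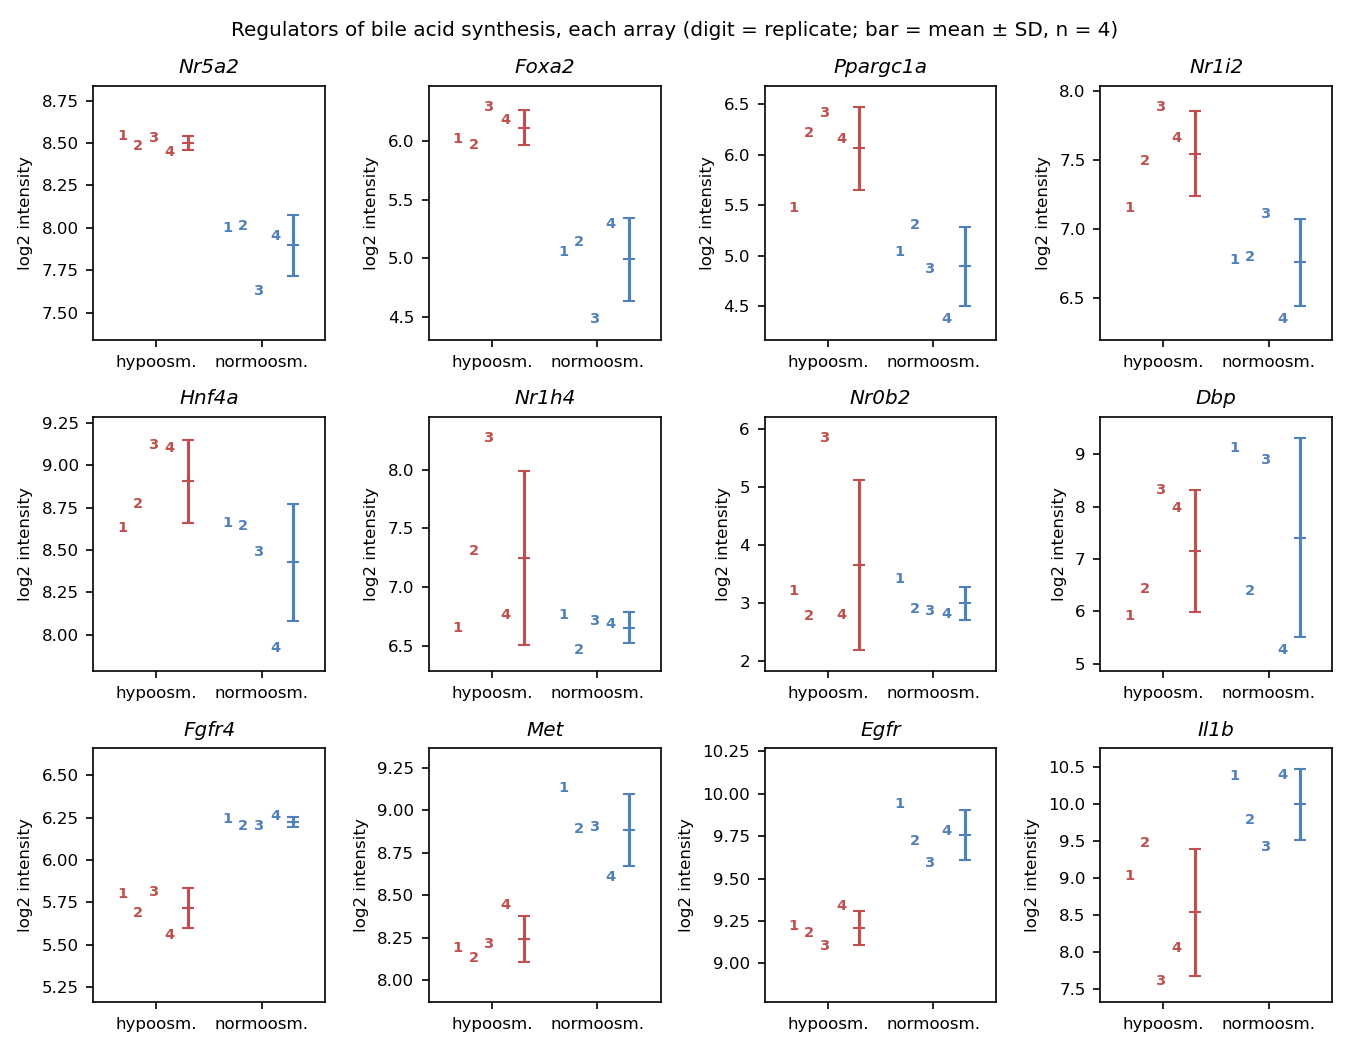
Log2 intensity (vertical axes) of 12 regulators on each array, hypoosmotic on the left and normoosmotic on the right of each panel; digits are replicate numbers and bars the mean ± SD (n = 4). Nr5a2, Foxa2, Ppargc1a and Nr1i2 are higher and Fgfr4, Met and Egfr lower in all hypoosmotic samples. Hypoosmotic replicate 3 is the highest sample for Nr1h4 and Nr0b2 and raises their hypoosmotic means.

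The bile acid sensor and its target did not pass, and 1 sample raised the hypoosmotic mean of both. Nr1h4 (FXR) had 6.65, 7.31, 8.27 and 6.76 in hypoosmotic samples, against 6.76, 6.46, 6.71 and 6.68 in normoosmotic samples (change 0.60, adjusted p = 0.280). Without hypoosmotic replicate 3 the change was 0.25, the lowest of the 8 fits with 1 array left out. Hypoosmotic replicate 2, at 7.31, also lay above all normoosmotic values. Nr0b2 (SHP) had 3.20, 2.78, 5.84 and 2.80 in hypoosmotic samples, against 3.42, 2.89, 2.86 and 2.81 in normoosmotic samples. On 5 of the 8 arrays Nr0b2 lay below the near-background level of 3.04, and its change went to -0.07 without hypoosmotic replicate 3 instead of 0.66 with it. That sample was also the highest for Cyp7a1 and the lowest for Cyp7b1. Hnf4a had 8.63, 8.77, 9.12 and 9.10 in hypoosmotic samples, against 8.66, 8.64, 8.49 and 7.92 in normoosmotic samples, a change of 0.48 ± 0.18 (SE) that did not pass (adjusted p = 0.146).

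Signalling genes known to act on Cyp7a1 had negative changes in 7 of 11 cases, against 46.7% of all genes. Of the 11 measured 3 fell, 0 rose and 8 did not pass, where 4.62% of all genes fell, and 6 had an unadjusted p under 0.05. Their median change was -0.39, against 0.015 over all genes. This list, too, was chosen with earlier results of these data known, so its shares are only a description. Met, the receptor of hepatocyte growth factor, had 8.19, 8.13, 8.21 and 8.44 in hypoosmotic samples, against 9.13, 8.89, 8.90 and 8.61 in normoosmotic samples (change -0.64 ± 0.13 SE, adjusted p = 0.0141). Egfr, the epidermal growth factor receptor, had 9.22, 9.18, 9.10 and 9.34 in hypoosmotic samples, against 9.94, 9.72, 9.59 and 9.78 in normoosmotic samples (change -0.55 ± 0.11 SE, adjusted p = 0.0137). Neither overlapped between groups, and both still passed with any 1 array left out. Il1b, the inflammatory cytokine, fell by 1.46 on the log2 scale (adjusted p = 0.0397) with overlapping groups. It passed only without hypoosmotic replicate 1 or hypoosmotic replicate 2, with an adjusted p from 0.0222 to 0.110. Jun, a mediator of the repression, had a change of 0.07 (adjusted p = 0.891) and was named after its value was seen.

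Genes of cholesterol supply gave no call. Of 15 measured 0 passed (limma, 2 at an unadjusted p under 0.05), with a median change of 0.10. Soat2, which esterifies cholesterol, had a change of 0.32 (adjusted p = 0.0913) and Srebf2, the regulator of cholesterol synthesis, one of -0.31 (adjusted p = 0.185).

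Likeness of pattern over the 8 arrays was measured with Pearson's r to each of the other genes, as a description. The arrays share 1 platform and normalization, and the 2 buffers add to r for any gene that changed. Nearest to Cyp7b1 were Nr2c2 (r = 0.988), Csnk1g1 (0.985) and Nup205 (0.985), and 261 genes exceeded 0.9. That count was between 7 and 36 for the other members. Nearest to Cyp7a1 were Msx3 (0.967), St8sia2 (0.966) and Hes6 (0.951), whose own changes lay between 0.02 and 0.12. Kctd5, Cops8 and Polr1h were nearest to Cyp27a1 (0.935 to 0.961), and Rara, Mknk2 and Ccnd3 to Cyp8b1 (0.932 to 0.958). Pdia4, Stra6 and Slc4a3 were nearest to Akr1d1 (0.925 to 0.948), Semg1, Nbr1 and Lrrc59 to Slc27a5 (0.918 to 0.942), and Rnf121, Exosc8 and Stkld1 to Baat (0.959 to 0.971). For Hsd3b7 they were Fam81a, Or1af1 and Or2y1c (0.940 to 0.958), of which both odorant receptor genes lay below the near-background level.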

How the data were processed

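The 8 arrays were 4 hypoosmotic and 4 normoosmotic, grouped by sample title. The authors deposited log2 expression values for 27596 probe sets. The tools named, per the submitters' processing notes, are RMA, Transcriptome Analysis Console 4.0 and Affymetrix Expression Console, and their roles are not stated. Where RMA's quantile step is applied, it makes array distributions alike and hides a shift common to most genes. Scanner files were not used here, and the build on which probes were designed is not given in the sources used here.

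Gene names came from the 2016 platform annotation, with symbols updated from a RefSeq gene table. Of the probe sets 15316 had 1 symbol, 317 had several and 11963 were not named, and the highest-mean probe set of each of 14511 genes was used. Symbols were matched in the promoter table for 5 of the 8 members, all but Cyp7a1, Cyp7b1 and Akr1d1.

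Groups were compared with limma's lmFit and eBayes (version 3.58.1; R 4.3.3), group being the only term, with Benjamini-Hochberg adjustment over all genes and calls at an adjusted p under 0.05. Each change gives the hypoosmotic mean minus the normoosmotic one. Intervals (95%) are limma's and unadjusted. The fit was tested on simulated data. Genes named were the 8 members with the 3 genes most like each, preset regulators, and from each other list the genes that passed, or else the 2 with the smallest p. The members and lists were chosen with earlier results of these data known. Python 3.11.15 prepared the tables and figures.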

Additional observations from a re-analysis of the deposited data

Results flagged for a closer look

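Within a group of 4, a single sample stood apart from the other 3 in 5 of the 44 gene and group combinations examined (22 genes), by Dixon's criterion for the gap to the nearest value. Chance flags about 1 in 20. Among the members this was so for Cyp7b1 in normoosmotic replicate 2, at 6.50 where the other normoosmotic samples had 5.94 to 6.03, and the Cyp7b1 change without it was -0.75 (adjusted p = 0.0625, limma). Among the regulators, Nr0b2 was high in hypoosmotic replicate 3 (5.84, the next at 3.20) and in normoosmotic replicate 1 (3.42, the next at 2.89), which were also the samples with the most Cyp7a1 in their groups. The value of 3.42 was little above the near-background level of 3.04, and the other normoosmotic Nr0b2 values lay below that level. Nr5a2 was low in normoosmotic replicate 3 (7.63, the next at 7.95). Soat2 was high in hypoosmotic replicate 1 (6.85, the next at 6.60). What set these samples apart was not tested.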

How the results depend on the processing

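Cyp7b1 kept its direction in all 17 alternative fits and passed in 12 of them. With a minimum fold change of 1.2, the number of genes called was 83 (23 higher, 60 lower), and 0 members, 0 other enzymes, 1 regulator (Foxa2) and 0 signalling genes passed, since this tests against a larger change. Median centring gave 235 higher genes and turned Hsd3b7 to -0.0350, and a further quantile normalization called 1 gene of cholesterol supply (Soat2, adjusted p = 0.0495). The cause of these shifts was not tested. With the replicate number as a block, 1029 genes and 1 member were called, and no call of a member changed (Cyp7b1 adjusted p = 0.0341). The block lowered the SE of Cyp8b1 from 0.190 to 0.110 (adjusted p = 0.249, limma). The deviations of same-numbered arrays correlated at 0.0061, 0.257, 0.116 and 0.0627 for numbers 1 to 4. For numbers 2, 3 and 4 this was the highest correlation of either array with the other group. Hypoosmotic replicate 1 correlated better with normoosmotic replicate 2 (0.154). These correlations do not settle whether replicate numbers pair the arrays. Leaving out 1 array at a time gave 468 to 1051 genes (137 to 392 higher, 331 to 659 lower), 0 to 1 members, 0 to 1 other enzymes, 4 to 5 regulators and 2 to 3 signalling genes, with fewer arrays in each fit. The count of genes was 545 without hypoosmotic replicate 2, and 626, 675, 468 and 563 without normoosmotic replicates 1, 2, 3 and 4. The log2 change then ran from -0.19 to 0.97 for Cyp7a1, from -0.0633 to 0.0600 for Hsd3b7, from -0.0042 to 0.15 for Cyp27a1 and from -0.0683 to 0.95 for Nr0b2, so their signs are not settled. The directions of Cyp8b1, Akr1d1, Slc27a5 and Baat held in all 17 fits without passing in any. Il1b also failed with an intensity trend and robust variances (adjusted p = 0.0849) and with all probe sets tested together (0.0543). The alternatives for the other lists and the near-background level were added after seeing the data.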
